A study of Mus musculus with 2 samples.

Results

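Regulatory T cells (Tregs) of AT3 tumors were taken as the barcodes with 500 to 7500 detected genes and at most 15% mitochondrial UMIs that carried at least 2 UMIs of Cd3d, Cd3e and Cd3g together, at least 1 Foxp3 UMI, no Cd8a or Cd8b1 UMI, fewer than 10 C1q UMIs (C1qa, C1qb and C1qc) and at most 2 UMIs of the cycling genes Mki67 and Top2a. A UMI is a tag that marks an original RNA molecule, so that copies made by PCR are counted once. This rule found 496 cells among the 6363 that passed the gene and mitochondrial limits, 258 in the Pgdfl/fl library and 238 in the Pgdfl/fl LysMCre library. Because Foxp3 and the other rule genes chose the cells, their levels are given as a description.

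The study asked what loss of 6-phosphogluconate dehydrogenase (6PGD, gene Pgd), an enzyme of the pentose phosphate pathway, does to the immune cells of mammary tumors grown from the AT3 mouse breast cancer line. The control group, labelled WT, was Pgdfl/fl, in which Pgd is flanked by loxP sites. The group labelled 6PGDKO was Pgdfl/fl LysMCre, which shares the floxed alleles and adds a Cre recombinase driven by the lysozyme locus Lyz2, which is active in myeloid cells and is not known as a T cell gene. Tumors of 10 mice per genotype were pooled on day 30, and CD45+ cells were sorted (a live CD11b+ sort is also named). The paper describes Feature Barcode tags and the pooling of sorted cells from tumors of both genotypes. The data hold 1 single-cell count matrix per genotype, called a library here. Treg transcripts were therefore measured in T cells, which are not the intended targets of the Cre driver, in tumors whose myeloid cells are. With 1 library per genotype no test between genotypes was possible, and every interval below is a 95% interval that covers counting error only. The spread between mice could not be measured.

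Tregs are CD4 T cells that restrain immune responses, and the transcription factor Foxp3 defines the lineage. They hold the high-affinity interleukin 2 receptor, inhibitory receptors such as CTLA-4, and secreted mediators such as interleukin 10. In non-lymphoid tissues and tumors many Tregs take on an effector or tissue-repair program that includes the interleukin 33 receptor ST2 (Il1rl1), KLRG1, the transcription factor GATA3 and the growth factor amphiregulin (Areg), while Tregs that resemble those of lymphoid organs keep homing genes such as Ccr7.

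The matrices held 3728 barcodes and 27245625 UMIs for Pgdfl/fl and 3014 barcodes and 28827045 UMIs for Pgdfl/fl LysMCre, with 0 barcodes in common. Kept cells had a median of 5554 and 7926 UMIs, respectively. Treg depth was closer between the libraries. Pgdfl/fl Tregs held 1191895 UMIs with a median of 3952 per cell (range 1082 to 24993), and Pgdfl/fl LysMCre Tregs held 1236381 UMIs with a median of 3839.5 (range 1455 to 25410). Foxp3-negative CD4 T cells, defined by the same limits with 0 Foxp3 and at least 1 Cd4 UMI, numbered 248 and 112. CD8 T cells, with 0 Foxp3 UMIs, 0 Cd4 UMIs and at least 2 Cd8a or Cd8b1 UMIs, numbered 678 and 405. Some Treg barcodes of both libraries also carried transcripts of dendritic, myeloid or epithelial cells, and results that rest on them are given with and without them below.

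Pgd was first examined in macrophages, which express Lyz2, the locus that drives the Cre. In those without Cd3 transcripts, Pgd was at 108 CPM (UMIs scaled to a total of 1000000) in Pgdfl/fl and 29.6 CPM in Pgdfl/fl LysMCre, a log2 ratio of -1.86 (interval -2.10 to -1.63). In Tregs, Pgd had 41 UMIs (34.4 CPM) and 32 UMIs (25.9 CPM), with a log2 ratio of -0.41 and an interval of -1.12 to 0.29. Pgd differed by 2-fold or more in macrophages, whereas in Tregs no difference was detectable at this depth. Lyz2, which hosts the Cre, had 21327 UMIs in Pgdfl/fl and 77 in Pgdfl/fl LysMCre macrophages. In Tregs, Lyz2 had 206 and 10 UMIs, and 170 of the 206 lay in 1 Pgdfl/fl cell.

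The label was set beside 5 markers that the rule did not use. They were chosen with earlier results of these data known, so their detection is a description and not an independent check. They were Il2ra (the alpha chain of the interleukin 2 receptor), Ikzf2 (the transcription factor Helios), Tnfrsf4 (the costimulatory receptor OX40), Il1rl1 and Klrg1. At least 3 of these were detected in 234 of 258 Pgdfl/fl Tregs (90.7%) and 219 of 238 Pgdfl/fl LysMCre Tregs (92.0%). No Treg lacked all 5, and 86 and 77 cells held all of them. The same criterion was met by 16.5% of Pgdfl/fl and 36.6% of Pgdfl/fl LysMCre Foxp3-negative CD4 T cells, and by 0.442% and 3.70% of CD8 T cells. Cells were then thinned to 2000 UMIs, a random draw that puts cells at equal depth. Cells with fewer UMIs were left out in this and every other thinned setting, and 247 and 228 Tregs remained here. The Treg shares were then 78.5% and 80.7%, against 9.09% and 20.2% of Foxp3-negative CD4 T cells. The Foxp3-negative cells of the Pgdfl/fl LysMCre library thus held more of the Treg markers than those of the Pgdfl/fl library at equal depth.

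Among these markers, Tnfrsf4 was detected in 97.3% of Pgdfl/fl and 97.9% of Pgdfl/fl LysMCre Tregs, Ikzf2 in 95.3% and 98.3%, and Il2ra in 89.9% of both. Il1rl1 was detected in 63.6% and 63.9%, and Klrg1 in 45.0% (38.8 to 51.3%) and 39.9% (33.6 to 46.4%). In CD8 T cells, Il1rl1 was found in 0.737% and 1.48% and Klrg1 in 0.737% and 1.73%. Il2ra, Ikzf2 and Tnfrsf4 therefore marked nearly every Treg, and Il1rl1 and Klrg1 marked a part of them. Cd4, which the rule does not ask for, had a UMI in 105 of 258 and 90 of 238 Tregs.

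**Figure D1:**
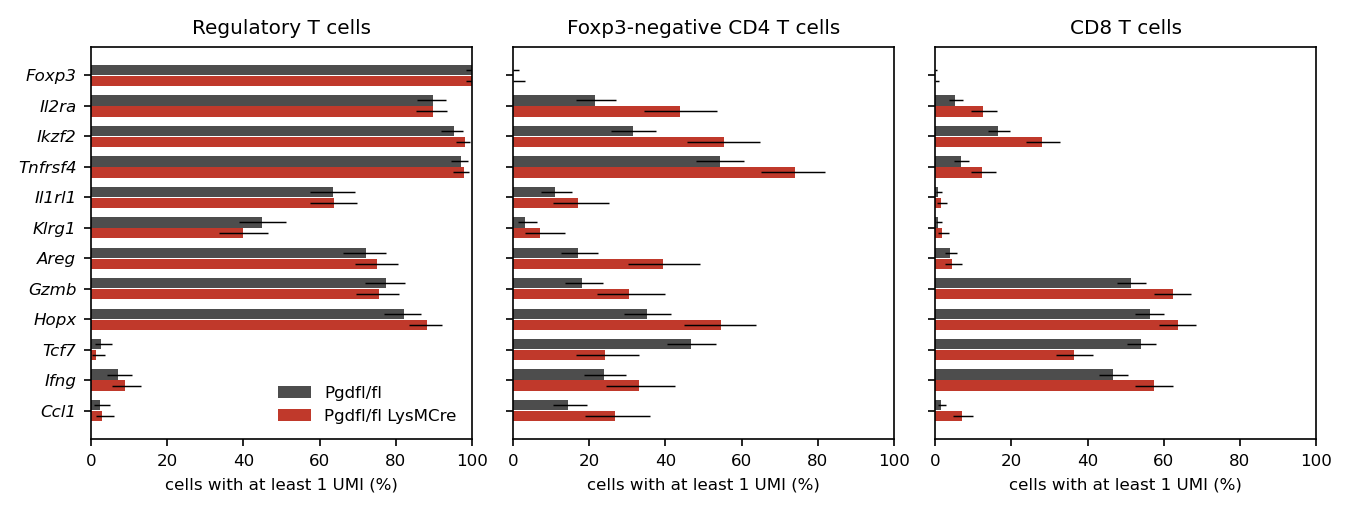
Share of cells with at least 1 UMI of each gene (x axis, percent) in Tregs, Foxp3-negative CD4 T cells and CD8 T cells of the Pgdfl/fl (grey) and Pgdfl/fl LysMCre (red) libraries, with exact Clopper-Pearson 95% intervals. Ikzf2 and Tnfrsf4 lie above 95% in Tregs of both libraries, Tcf7 lies below 3% there, and Foxp3 is at 100% or 0% by construction.

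Foxp3 lies at chrX:7579676-7595243 of the GRCm38.p6 assembly (mm10, the build named by the submitters), Il1rl1 at chr1:40404864-40465418, Ikzf2 at chr1:69531207-69687351, Il2ra at chr2:11642792-11693194, Tnfrsf4 at chr4:156013595-156016613 and Klrg1 at chr6:122270596-122282833. All 6 are protein-coding genes. Promoter windows of 300 bases, from 250 before to 50 after a RefSeq transcript start, are shown for both starts of Foxp3, the gene that defines the cells, for both starts of Il1rl1, which had the highest ratio of Tregs to Foxp3-negative CD4 T cells among the markers with an entry, and for Gzmb, an effector gene of Tregs. Capitals mark matches, on either strand, to the forkhead letters TGTTTAC, the GATA letters AGATAA or the AP-1 letters TGANTCA.
Foxp3, first start, chrX:7579426-7579725, plus strand, 0 matches: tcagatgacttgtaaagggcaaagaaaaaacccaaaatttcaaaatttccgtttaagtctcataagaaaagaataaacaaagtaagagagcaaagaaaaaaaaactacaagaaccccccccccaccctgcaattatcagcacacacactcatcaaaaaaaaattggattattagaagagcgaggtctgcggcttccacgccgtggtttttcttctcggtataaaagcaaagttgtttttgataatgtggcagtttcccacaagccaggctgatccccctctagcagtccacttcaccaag
Foxp3, second start, chrX:7580233-7580532, plus strand, 1 GATA match: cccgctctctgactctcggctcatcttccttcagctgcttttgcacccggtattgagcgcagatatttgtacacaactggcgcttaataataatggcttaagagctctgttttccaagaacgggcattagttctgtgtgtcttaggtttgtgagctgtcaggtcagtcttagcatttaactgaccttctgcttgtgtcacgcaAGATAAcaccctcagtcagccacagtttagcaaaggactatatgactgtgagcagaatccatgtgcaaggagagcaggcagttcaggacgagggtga
Il1rl1, distal start, chr1:40429320-40429619, plus strand, 1 GATA match: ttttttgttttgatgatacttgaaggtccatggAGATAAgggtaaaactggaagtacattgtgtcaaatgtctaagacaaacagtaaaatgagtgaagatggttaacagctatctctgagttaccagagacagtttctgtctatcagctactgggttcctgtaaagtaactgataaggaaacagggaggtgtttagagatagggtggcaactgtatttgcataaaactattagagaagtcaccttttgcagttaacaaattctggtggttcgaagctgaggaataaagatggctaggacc
Il1rl1, proximal start, chr1:40439379-40439678, plus strand, 1 forkhead and 1 GATA match: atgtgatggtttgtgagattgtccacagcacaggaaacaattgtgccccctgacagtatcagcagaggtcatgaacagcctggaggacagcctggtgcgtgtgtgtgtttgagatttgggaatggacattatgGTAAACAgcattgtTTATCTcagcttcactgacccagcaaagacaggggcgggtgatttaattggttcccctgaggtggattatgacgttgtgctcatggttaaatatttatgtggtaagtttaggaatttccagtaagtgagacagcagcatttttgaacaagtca
Gzmb, chr14:56262285-56262584, minus strand, 1 AP-1 match: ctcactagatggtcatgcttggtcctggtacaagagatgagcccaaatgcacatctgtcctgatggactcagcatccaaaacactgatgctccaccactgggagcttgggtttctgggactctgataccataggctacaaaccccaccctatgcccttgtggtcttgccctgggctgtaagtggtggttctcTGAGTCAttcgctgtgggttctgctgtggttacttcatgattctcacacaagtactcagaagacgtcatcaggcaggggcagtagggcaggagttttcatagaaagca

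These windows came from 19 genes, the 6 markers and the genes with the highest Treg level relative to Foxp3-negative CD4 T cells, of which 14 had an entry; Dgat2, Ikzf2, Klrg1, Lamc1 and Trf had none. In their 18 windows the forkhead letters occurred in 3, the GATA letters in 3 and the AP-1 letters in 1. Among all 32851 RefSeq windows of the same length, the shares were 3.65%, 11.2% and 7.81%. Both Il1rl1 windows held the GATA letters, and the proximal one held the forkhead letters as well. A match is a description of the letters and not evidence of binding.

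Foxp3 counts per cell were low. Foxp3 had 723 UMIs (607 CPM) in Pgdfl/fl and 591 UMIs (478 CPM) in Pgdfl/fl LysMCre Tregs, with a median of 2 UMIs per cell in both and a maximum of 12 and 10. A cell with 1 Foxp3 UMI was just inside the rule, and there were 76 and 88 such cells. Ikzf2 was detected in 92.1% and 96.6% of them and Il2ra in 90.8% and 81.8%. Just outside, Foxp3-negative CD4 T cells had Ikzf2 in 31.5% and 55.4% and Il2ra in 21.4% and 43.8%. Foxp3 UMIs were then counted in other cell types. They were found in 1 of 532 B cells of the Pgdfl/fl library (0.188%, median 3378 UMIs) and in 0 of 40 of the other, with an exact interval of up to 8.81%. Macrophages without Cd3 transcripts had a Foxp3 UMI in 0.879% and 0.560% at medians of 11550 and 11777.5 UMIs. CD8 T cells were here taken with at least 2 Cd8a or Cd8b1 UMIs, whatever their Foxp3 or Cd4 count. A Foxp3 UMI was found in 21 of 714 (2.94%) and 29 of 450 (6.44%) of them, at medians of 6032 and 6728 UMIs.

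The other limits of the rule left out further Foxp3-positive cells. At least 10 C1q UMIs kept out 32 and 59 cells, with medians of 13594 and 14525 UMIs, of which 100% and 89.8% held Ikzf2. A Cd8 UMI kept out 40 and 55 cells, with Ikzf2 in 80.0% and 92.7%. The cycling limit kept out 37 and 25 cells, which had a median of 10024 and 12309 UMIs and Ikzf2 in 97.3% and 100%. Foxp3-positive cells with 0 or 1 Cd3 UMI numbered 11 and 8, and Ikzf2 was found in 63.6% and 62.5% of them.

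The share of Tregs was compared between the genotypes. Tregs made up 14.4% of T cells in Pgdfl/fl (258 of 1787, interval 12.8 to 16.2%) and 19.98% in Pgdfl/fl LysMCre (238 of 1191, 17.7 to 22.4%), a difference of 5.55 percentage points (± 2.84 from counting). Among CD4-like cells, Tregs and Foxp3-negative CD4 T cells together, the shares were 51.0% (46.5 to 55.4%) and 68.0% (62.8 to 72.9%). The rule asks for a Cd4 UMI in the Foxp3-negative cells and not in Tregs, and with one required of both the shares were 29.7% (25.0 to 34.8%) and 44.6% (37.6 to 51.7%). Among all kept cells the shares were 7.24% (6.41 to 8.14%) and 8.51% (7.50 to 9.60%), whose intervals overlap. The number of Tregs was thus similar in both libraries, and Foxp3-negative CD4 T cells were fewer in Pgdfl/fl LysMCre, with 112 cells against 248.

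The size of the difference depended on how a Treg was counted. At 2000 UMIs per cell, Tregs were 12.1% (10.6 to 13.8%) and 15.5% (13.4 to 17.8%) of T cells, and 53.4% and 63.8% of CD4-like cells. With at least 2 Foxp3 UMIs, the shares of T cells were 10.2% and 12.6%, a difference of 2.41 points (± 2.40). With a Cd4 UMI required they were 5.88% and 7.56%, and the difference of 1.68 points was within its counting error of 1.91. T cells of the Pgdfl/fl LysMCre library were deeper (median 5906 UMIs against 5093), while Tregs were not (3839.5 against 3952), and the part of depth beyond the thinned values was not tested. Tregs could not be compared in absolute number per tumor, because the files give only the cells that were loaded and captured.

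**Figure D2:**
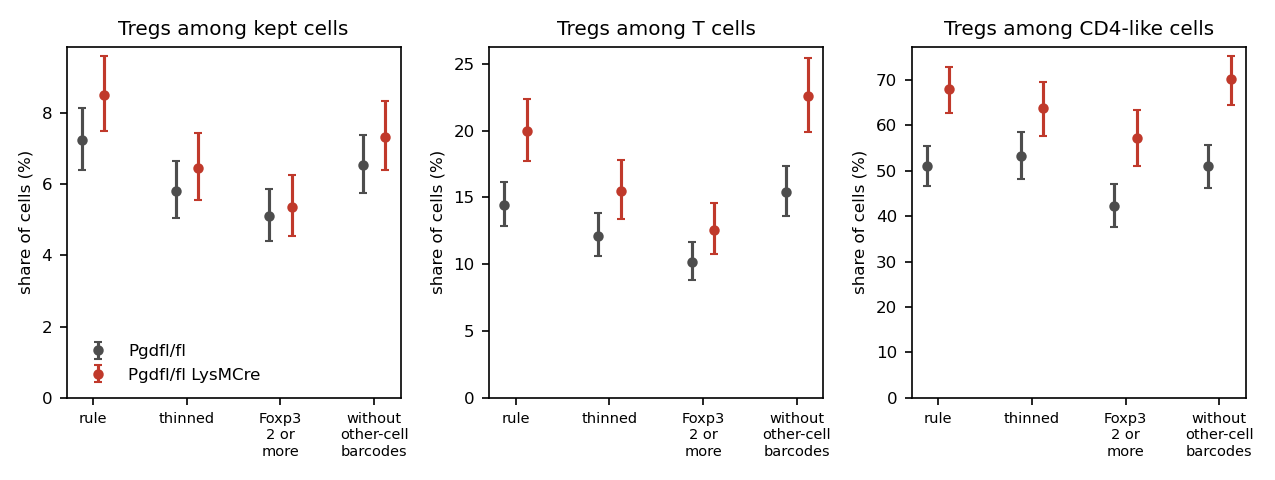
Tregs as a share (y axis, percent) of kept cells, of T cells and of CD4-like cells in the Pgdfl/fl (grey) and Pgdfl/fl LysMCre (red) libraries, under the rule, at 2000 UMIs per cell, with at least 2 Foxp3 UMIs and without barcodes of more than 20 other-cell UMIs (58 left out of Tregs, with 1512 and 908 T cells and 457 and 292 CD4-like cells left, and kept cells unchanged). Points are shares and bars are exact Clopper-Pearson 95% intervals; the red point is the higher in every panel and setting, and the intervals overlap in each setting of kept cells.

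Next, Tregs were set against Foxp3-negative CD4 T cells of the same library, as summed CPM, to describe the Treg program apart from the genes shared by CD4 T cells. Of 4407 genes with at least 50 UMIs over both populations in each library, 168 (3.81%) were at least 2-fold higher in Tregs in both libraries and 62 (1.41%) at least 2-fold lower. The median gene was at 0.16 in Pgdfl/fl and 0.06 in Pgdfl/fl LysMCre on the log2 scale. All 5 markers were higher in both. Klrg1 was 202 CPM in Tregs and 13.5 CPM in Foxp3-negative cells of Pgdfl/fl, and 200 and 22.9 CPM in Pgdfl/fl LysMCre, log2 ratios of 3.91 and 3.13. Il1rl1 was 505 against 44.6 CPM and 590 against 82.0 CPM, log2 ratios of 3.50 and 2.85. The corresponding ratios were 2.79 and 1.86 for Il2ra, 2.69 and 1.94 for Ikzf2, and 1.997 and 1.57 for Tnfrsf4. All 5 ratios were smaller in Pgdfl/fl LysMCre, where the Foxp3-negative cells held more of these transcripts.

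Beyond the markers, 13 genes were named for the highest ratios, and of these Areg, Gzmb and Dgat2 are in the tissue Treg list. Areg, which encodes amphiregulin, was 1943 CPM in Pgdfl/fl Tregs and 276 CPM in Foxp3-negative cells, and 2177 and 356 CPM in Pgdfl/fl LysMCre, log2 ratios of 2.81 and 2.61. Gzmb, which encodes the serine protease granzyme B, had ratios of 3.39 and 2.29. Hopx, a homeodomain protein, had ratios of 3.07 and 2.60. CD8 T cells also held both genes, Gzmb at 898 and 852 CPM and Hopx at 183 and 202 CPM. The Treg levels were 2118 and 1714 CPM for Gzmb and 1342 and 1401 CPM for Hopx. Ednrb, the endothelin receptor type B, was 112 and 97.9 CPM in Tregs and 9.27 and 2.69 CPM in Foxp3-negative cells, log2 ratios of 3.60 and 5.19. The ratio of 5.19 rests on few Foxp3-negative UMIs. Ky had ratios of 4.02 and 2.90, and Gpr55, a lipid-sensing G protein-coupled receptor, 3.29 and 2.39. Ratios of 2.91 and 3.19 were found for Dgat2, which catalyzes the last step of triglyceride synthesis, 3.03 and 2.44 for the prohormone convertase Pcsk1, 2.72 and 2.84 for the guanylate-binding protein Gbp3, 2.57 and 2.75 for the laminin gene Lamc1, and 2.69 and 3.13 for transferrin (Trf). Gas2l3 and Tctex1d1 completed the set, with ratios of 2.27 and 2.56, and 3.28 and 2.27. Trf rested on few cells, since the 5 highest cells held 55.8% and 64.7% of its Treg UMIs.

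The gene lists were counted against the 3.81% of all genes that were at least 2-fold higher in Tregs in both libraries and the 1.41% that were lower. Of 21 measured tissue Treg genes, 12 were at least 2-fold higher than in Foxp3-negative cells in both libraries and 0 were lower, and the list medians were 1.43 and 1.06. Among Treg transcription factors, 6 of 23 were higher and 1 was lower; Gata3 had ratios of 1.73 and 1.05, and Maf 1.85 and 1.33. Of the suppressive molecules, 6 of 21 were higher, including Il10 at 1.35 and 1.06, whereas Ctla4 at 1.19 and 0.82 passed the 2-fold limit in Pgdfl/fl only. Costimulatory TNF receptor genes were higher in 4 of 12, among them Tnfrsf9 (4-1BB) at 2.34 and 1.55 and Tnfrsf1b (TNFR2) at 1.60 and 1.10. Tnfrsf18 (GITR) was at 1.71 and 0.90. Of the chemokine receptors and adhesion genes, 4 of 22 were higher and 2 were lower; Ccr2 was at 3.08 and 1.71, and the integrin Itgae (CD103) at 2.56 and 1.18. Interferon-stimulated genes were higher in 6 of 26 with medians of 0.57 and 0.64.

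Of 12 measured effector cytokines, 5 were at least 2-fold lower in Tregs in both libraries, against 1.41% of all genes, and 0 were higher; the other 7 did not pass the limit in both. Ifng, which encodes interferon gamma, was 57.1 and 47.7 CPM in Tregs and 448 and 577 CPM in Foxp3-negative cells, log2 ratios of -2.97 and -3.60. A Treg had an Ifng UMI in 6.98% and 8.82% of cells, against 23.8% and 33.0% of Foxp3-negative CD4 T cells. The survival gene Bcl2 was 18.5 and 12.1 CPM against 161 and 144 CPM, log2 ratios of -3.12 and -3.57. The other genes with the lowest ratios were Tnfsf11 (RANK ligand) at -3.87 and -2.17, the NK receptor gene Klrd1 at -2.52 and -2.33, Tbc1d4 at -2.42 and -2.20, Ramp3 at -2.44 and -2.24, Scin at -2.38 and -2.60 (-0.90 in Pgdfl/fl LysMCre without the barcodes that carry other-cell transcripts), Nmrk1 at -2.34 and -2.48, Gtf2i at -2.34 and -2.06, and Serpinb6b at -2.15 and -2.50.

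Tcf7, a transcription factor of naive and memory T cells, and the chemokine Ccl1 were nearly missing from Tregs; they were singled out after their values were seen, since fewer than 20 Tregs held them. Tcf7 had 7 and 5 UMIs in Tregs, found in 2.71% and 1.26% of cells, while 46.8% and 24.1% of Foxp3-negative cells held it. Ccl1 had 10 and 13 UMIs in Tregs, at log2 ratios of -6.09 and -5.79 to the Foxp3-negative cells. Heat shock genes were at least 2-fold lower in 3 of 11, against 1.41% of all genes, and higher in 0, with list medians of -0.38 and -0.45.

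**Figure D3:**
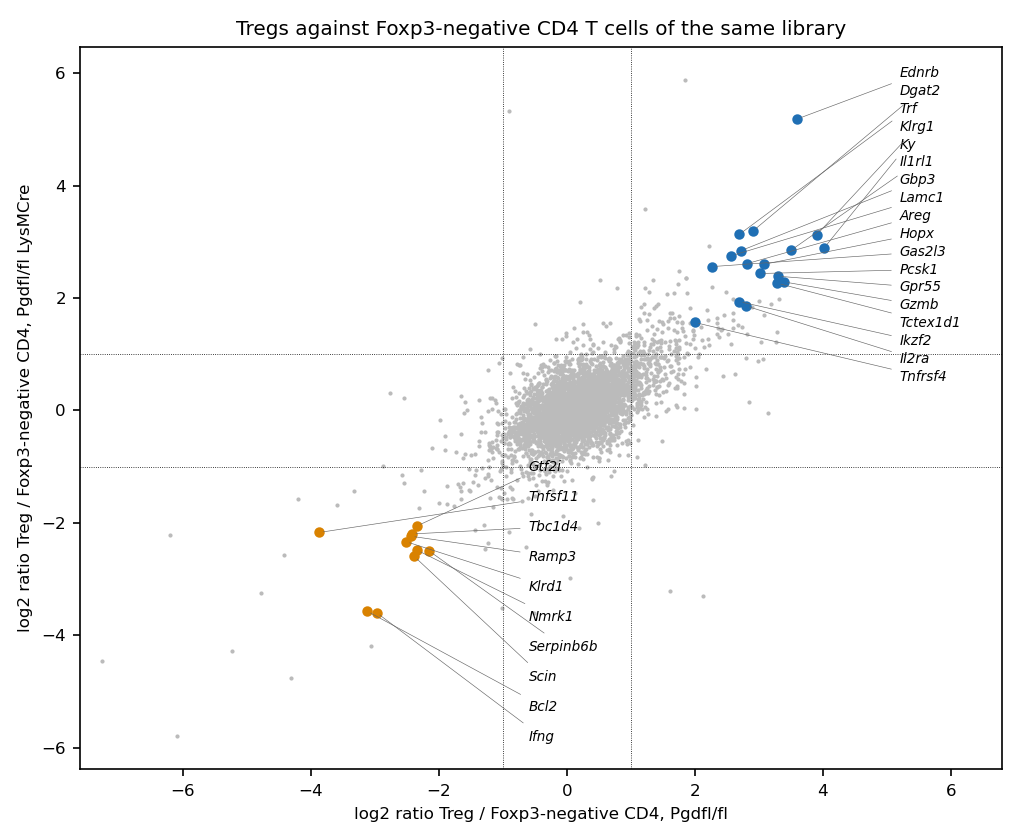
Log2 ratio of summed CPM in Tregs to Foxp3-negative CD4 T cells in the Pgdfl/fl library (x axis) and the Pgdfl/fl LysMCre library (y axis), 1 point per gene, with dotted lines at a 2-fold difference. Named genes that are higher in Tregs (blue) lie at the upper right, led by Ednrb on the y axis and not on the x axis. Those that are lower (orange) lie at the lower left, led by Tnfsf11 on the x axis and by Ifng and Bcl2 on the y axis.

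Detection of the tissue genes Il1rl1 and Klrg1 was compared among Tregs. At least 1 UMI of Il1rl1 or Klrg1 was found in 73.3% of Pgdfl/fl (67.4 to 78.6%) and 69.3% of Pgdfl/fl LysMCre Tregs (63.0 to 75.1%). The difference of -3.93 points was within its counting error of 8.22. At 2000 UMIs per cell the share with Il1rl1 or Klrg1 was 60.3% and 62.3%. Tregs without a UMI of either gene numbered 69 and 73, and 0 UMIs at this depth do not separate cells that lack these transcripts from cells in which they were not sampled.

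Tregs with an Il1rl1 or Klrg1 UMI (189 and 165 cells) were then set against those without (69 and 73 cells). The groups were chosen by these transcripts and differed in depth, with medians of 4194 against 3302 UMIs in Pgdfl/fl and 3969 against 3599 in Pgdfl/fl LysMCre, so a gene that follows depth or the chosen genes is no finding. Of 2902 genes measured, 11 (0.379%) were at least 2-fold higher in both libraries, namely Gzmc, Ltf, Ednrb, Gda, Ky, Hist3h2a, Plxnd1, Jcad, Egln3, Dgat2 and Fas. Ednrb was higher by 1.95 and 2.75 on the log2 scale, Ky by 2.37 and 1.72, and Dgat2 by 1.18 and 1.60, and these were also among the genes with the highest ratio of Tregs to Foxp3-negative cells. Areg was higher by 0.92 and 0.72 and Gata3 by 0.72 and 0.76, while Foxp3 itself was at 0.08 and 0.13. In the other direction 2 genes (0.0689%) were at least 2-fold lower in both, Tbc1d4 at -1.63 and -1.48 and Ctsl at -1.01 and -1.05. Il10 was also lower in cells with Il1rl1 or Klrg1, at -0.70 in Pgdfl/fl and -1.68 in Pgdfl/fl LysMCre. Gzmc rested on few cells, with 9 and 12 Tregs holding it.

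Expression in Tregs was then compared between genotypes, to describe Tregs in tumors with and without the LysMCre allele, whose macrophages still held Pgd at 29.6 CPM. Of 5091 genes with at least 50 UMIs, 109 (2.14%) were at least 2-fold higher in Pgdfl/fl LysMCre and 21 (0.412%) at least 2-fold lower, 2.55% in all, and the median log2 ratio was -0.0004. None of the 6 markers reached 2-fold. Foxp3, which chose the cells and whose level is therefore a description, was at 607 and 478 CPM, a log2 ratio of -0.34. Il1rl1 was at 505 and 590 CPM, with a ratio of 0.23 (0.07 to 0.38). Tnfrsf4 was at 2273 and 2103 CPM with a ratio of -0.11, Il2ra at 871 and 816 CPM with -0.09, Ikzf2 at 1583 and 1504 CPM with -0.07, and Klrg1 at 202 and 200 CPM with -0.02. The 5 markers that the rule did not use thus differed by less than 2-fold between the libraries, as did most genes, of which 2.55% were past it.

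Most suppressive and tissue genes were within 2-fold, as were most of all genes, of which 2.55% were past it. Of 20 measured suppressive molecules, 0 were past 2-fold higher, against 2.14% of all genes, and 1 was past 2-fold lower, against 0.412%, with a median of -0.20. Without the barcodes described below, 10 of 19 were above 0 and 9 below, 0 were past 2-fold, the median was 0.0072 and Ctla4 was at 0.016. The lower gene with all Tregs was Gzma, at 92 and 9 UMIs, which only 5 Tregs held in each library. Of its UMIs, 52 and 37 lay in 2 Pgdfl/fl cells. Without the barcodes described below, Gzma fell under the minimum of UMIs per gene and was not counted, though its ratio was -2.12. Il10 had 141 UMIs (118 CPM) in 19.8% of Pgdfl/fl Tregs and 239 UMIs (193 CPM) in 25.6% of Pgdfl/fl LysMCre Tregs, a log2 ratio of 0.71 (0.40 to 1.02). Gzmb was at -0.31 (-0.39 to -0.22), Ctla4 at -0.19 and Areg at 0.16. Among 21 tissue Treg genes 1 was past 2-fold higher, against 2.14% of all genes, namely Ctsh, a lysosomal protease also made by myeloid cells, at 1.20 with 44 and 105 UMIs, and its ratio was 0.42 without the barcodes described below. Penk, which encodes the opioid precursor proenkephalin, was at 1076 and 916 CPM with a ratio of -0.23, but its direction turned to 0.15 when thinned to 2000 UMIs, 0.04 without the barcodes described below and 0.02 by the mean of CPM per cell.

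The central Treg genes had a median of -0.02, and Ccr7, which guides cells to lymphoid tissue, stood highest among them. Ccr7 had 511 UMIs (429 CPM) in Pgdfl/fl and 949 UMIs (768 CPM) in Pgdfl/fl LysMCre Tregs, a log2 ratio of 0.84 (0.68 to 1.00). The share of Tregs with a Ccr7 UMI was closer, 41.9% and 46.6%. The difference in level thus came with higher counts in positive cells, and the 3 highest cells held 20, 17 and 15 UMIs in Pgdfl/fl and 55, 46 and 44 in Pgdfl/fl LysMCre. Klf2 was at -0.08 and Il7r at -0.02.

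Over all genes 2.55% were past 2-fold in either direction, so a count of 0 in the short lists here is near that share. Among signaling lists, the interleukin 2 receptor pathway had a median of -0.03 with 0 of 11 genes past 2-fold, Treg transcription factors -0.03 with 0 of 24, costimulatory TNF receptor genes -0.02 with 0 of 13, and checkpoint genes -0.07 with 0 of 10. Gata3 was at -0.27 (-0.44 to -0.09), Maf at -0.09 (0.16 when thinned) and Rora at 0.14. Tnfrsf18 was at -0.29, and at -0.13 when thinned and -0.11 without the barcodes described below. Icos was at -0.19, and at 0.03 and -0.03 under the same settings. Pdcd1 was at 0.01. Interferon-stimulated genes were below 0 in 25 of 28, against 2554 of 5091 over all genes, with a median of -0.20 and 0 past 2-fold; Ifi27l2a was at 4349 and 3750 CPM with a ratio of -0.21. Without the barcodes described below 20 of the 28 were below 0, against 2042 of 4210 over all genes, the list median was -0.14 and Ifi27l2a was at 0.0039.

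Effector cytokines had 2 of 10 genes past 2-fold, both lower, against 0.412% of all genes. Il17a, which encodes interleukin 17A, had 98 UMIs in 22 Pgdfl/fl Tregs and 31 UMIs in 11 Pgdfl/fl LysMCre Tregs, a log2 ratio of -1.71 (-2.35 to -1.12). Thinned to 2000 UMIs per cell the Il17a ratio was -0.62, under 2-fold. Xcl1, a chemokine of activated cytotoxic cells, had 275 and 38 UMIs with a ratio of -2.91 (-1.93 thinned), and 174 of the 275 lay in 1 cell. Metabolic lists lay near 0. The pentose phosphate pathway, the one that 6PGD belongs to, had a median of 0.11 with 0 of 5 past 2-fold, and glycolysis -0.01 with 0 of 16, against 2.55% of all genes. In the lipid and mitochondrial list 2 of 14 were past 2-fold higher, against 2.14% of all genes, the sterol and fatty acid regulator Srebf1 at 1.30 with 16 and 41 UMIs and the isoprenoid enzyme Idi1 at 1.14 with 21 and 48 UMIs. Without the barcodes described below 0 of 11 were past 2-fold, against 1.07% of all genes, with Idi1 at 0.86. Srebf1 fell under the 50-UMI minimum and was not counted there, though its ratio was 1.20. Class I MHC genes had a median of -0.03 with 0 of 14 past 2-fold, against 2.55% of all genes, and B2m was at 4541 and 4458 CPM.

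Among genes found in at least 20 Tregs, a limit that leaves out Gzma and Xcl1, the genes with the largest differences lay outside the gene lists, apart from Il17a. The 10 highest in Pgdfl/fl LysMCre were Epcam at 3.46, Zmynd15 at 2.70, Mfge8 at 2.68, Pak1 at 2.68, Cxcl9 at 2.55, Cd9 at 2.49, Csf2rb at 2.47, Anxa1 at 2.44, H2-DMb1 at 2.23 and Emp1 at 2.18. Several of these are known from antigen-presenting or epithelial cells, such as the class II chaperone gene H2-DMb1 and the adhesion molecule gene Epcam. Epcam had 18 UMIs in 12 Pgdfl/fl Tregs and 206 UMIs in 26 Pgdfl/fl LysMCre Tregs. The 10 lowest were Lyz2 at -4.42, Cd7 at -1.78, Il17a at -1.71, Pacsin1 at -1.29, Hnrnph3 at -1.27, Ift80 at -1.26, Pear1 at -1.23, Dtnbp1 at -1.18, Whamm at -1.17 and Hist2h2aa1 at -1.14. Apart from Lyz2 these had at most 98 UMIs in either library. Several of the 20 were under 2-fold in another setting. Without the barcodes described next, Epcam was at 0.46, Anxa1 at 0.61, Zmynd15 at 0.78, Csf2rb at 0.78 (-2.34 to 4.36), H2-DMb1 at 0.93 (-1.43 to 3.62) and Cd7 at -0.57, each with at most 18 UMIs left per library, and Emp1 was at 0.48 when thinned. Without the same barcodes Lyz2 went to -1.26, with 22 and 8 UMIs left, and Cxcl9 went up to 4.41 (2.45 to 7.51), with 2 and 37 UMIs left. Of the 79 Cxcl9 UMIs in Pgdfl/fl LysMCre Tregs, 35 and 27 lay in 2 cells.

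Markers of other cell types moved with these differences. Over 7 lists of macrophage, dendritic cell, B cell, neutrophil, mast cell, epithelial, and fibroblast and endothelial markers, more than 20 UMIs were found in 25 Pgdfl/fl Tregs (9.69%) and 33 Pgdfl/fl LysMCre Tregs (13.9%), 58 in all. These barcodes had a median of 6839 and 12542 UMIs, against 3654 and 3610 in the other Tregs, and a median of 2 Foxp3 UMIs like the rest. The 8 dendritic cell markers summed to 2476 CPM in Pgdfl/fl (7 of 8 detected, Siglech at 0) and 5969 CPM in Pgdfl/fl LysMCre (7 of 8, Clec9a at 0). The 5 epithelial markers summed to 25.2 CPM (3 of 5, Krt14 and Krt5 at 0) and 683 CPM (5 of 5). The 11 macrophage and monocyte markers summed to 727 and 909 CPM with all 11 detected in both, and the 6 B cell markers to 725 and 400 CPM with all 6 detected. Neutrophil markers summed to 200 and 276 CPM, with 185 of 238 and 330 of 341 UMIs in 1 cell each, and mast cell markers to 1.68 and 256 CPM, the latter in 1 cell. Fibroblast and endothelial markers summed to 46.1 and 38.8 CPM with Cdh5 at 0 in both.

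Other lymphocytes were also examined. Cd8a and Cd8b1 were at 0 by the rule, the gamma-delta T cell markers summed to 11.7 and 13.7 CPM with Tcrg-V6 at 0 in both, and the NK cell and ILC markers to 84.7 and 71.2 CPM with Il22 at 0 in both. The other-cell transcripts lay in few barcodes. The 33 Pgdfl/fl LysMCre barcodes held 94.7% of the 1943 H2-Ab1 UMIs, 91.3% of the Epcam, 92.9% of the Mfge8 and 95.7% of the Cd9 UMIs of Pgdfl/fl LysMCre Tregs. Without the 58 barcodes the dendritic cell markers summed to 740 and 803 CPM and the epithelial markers to 27.4 and 37.2 CPM. The barcodes were chosen by these marker lists, so a drop was set by that choice.

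The comparison was repeated without the 58 barcodes, a choice made after the data were seen. Of 4210 genes with at least 50 UMIs, 20 (0.475%) were at least 2-fold higher and 25 (0.594%) at least 2-fold lower, 1.07% in all, so higher genes were 44.4% of those past 2-fold against 83.8% with all Tregs. Of the 109 genes higher with all Tregs, 27 kept 50 UMIs and 7 of these were still past 2-fold; for 87 of the 109, more than 50% of the Pgdfl/fl LysMCre UMIs had been in the 33 barcodes. Of the 21 lower genes, 12 kept 50 UMIs and 10 of these were still past 2-fold. Mfge8 changed sign from 2.68 to -0.43 (31 and 20 UMIs left), Cd9 from 2.49 to -0.15 (14 and 11) and the early response gene Ier3 from 1.70 to -0.57 (17 and 10). H2-Ab1 went from 1.47 to -0.19. For most of the genes higher in Pgdfl/fl LysMCre Tregs, 82 of 109, fewer than 50 UMIs were left outside these barcodes.

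The Treg markers stayed within 2-fold, as did most genes, of which 1.07% were past it. Without the 58 barcodes Foxp3 was at -0.23, Il1rl1 at 0.30, Il2ra at 0.06, Ikzf2 at 0.13, Tnfrsf4 at 0.10 and Klrg1 at 0.15, and Il2ra, Ikzf2, Tnfrsf4 and Klrg1 moved from just below to just above 0. Il10 was at 0.86, Areg at 0.36, Gzmb at -0.11 and Il17a at -1.45, with 91 and 29 UMIs. Ccr7 was at 1.004, just past the 2-fold limit, with 419 and 733 UMIs. Past 2-fold higher were then 1 of 8 central Treg genes and 2 of 22 chemokine receptor and adhesion genes, against 0.475% of all genes. With all Tregs both lists had 0. The heat shock genes went from a list median of -0.12 to -0.38, and Hspa1a, the inducible HSP70 gene, from -0.34 (1357 and 1110 UMIs) to -1.05 (1060 and 446 UMIs). The part of the other-cell transcripts in the differences between genotypes was not tested beyond leaving these barcodes out.

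**Figure D4:**
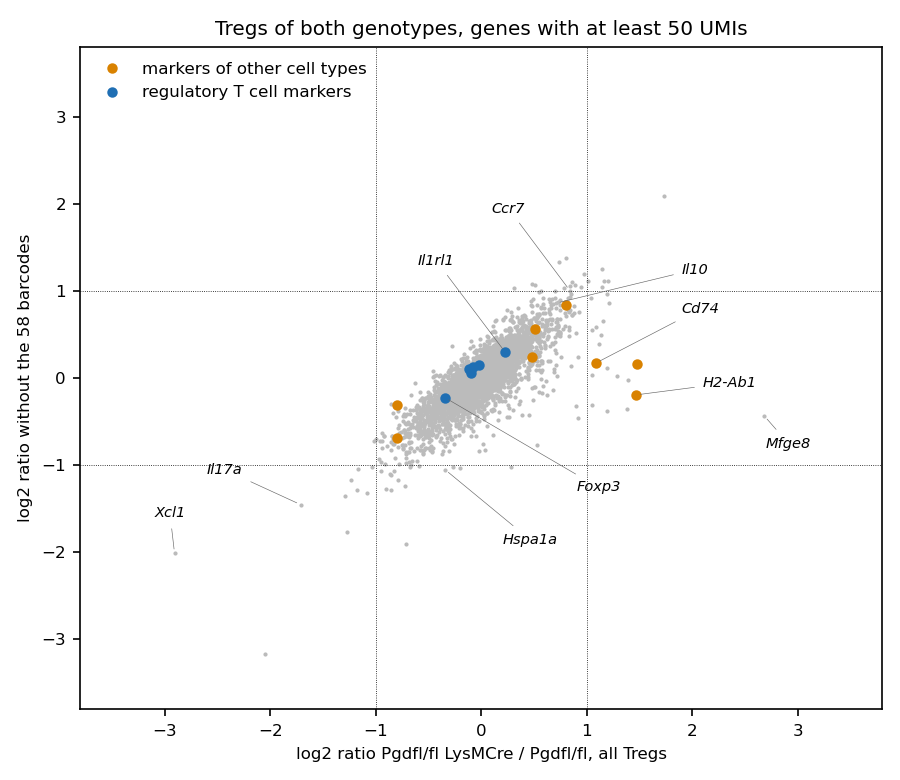
Log2 ratio of summed CPM in Pgdfl/fl LysMCre to Pgdfl/fl Tregs with all Tregs (x axis) and without the 58 barcodes that carry other-cell transcripts (y axis), 1 point per gene with at least 50 UMIs in both versions and dotted lines at a 2-fold difference; Hba-a2, at 7.71 and 7.96 with its UMIs in 1 cell per library, lies beyond the axes. Regulatory T cell markers (blue) lie near 0 on both axes. Among the other-cell markers (orange), H2-Ab1 is high on the x axis and near 0 on the y axis, while the B cell marker Ighm lies below 0 on both. The barcodes were left out for holding other-cell transcripts, so the drop of H2-Ab1 is set by that choice.

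Foxp3-negative CD4 T cells of the same libraries were used to see whether differences were shared. The difference of differences was not tested, as there is 1 library per genotype. Ccr7 was at 0.46 in Foxp3-negative cells and 0.84 in Tregs, and Il10 at 1.00 and 0.71. Il1rl1 was at 0.88 and 0.23, Ikzf2 at 0.67 and -0.07, and Il2ra at 0.84 and -0.09. H2-Ab1 was at 1.49 in Foxp3-negative cells, close to the 1.47 of Tregs with all barcodes kept, and 9.68% and 22.3% of Foxp3-negative cells carried more than 20 other-cell UMIs. Tcf7 was at -1.50 in Foxp3-negative cells.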

How the data were processed

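Per the labels and the file headers, the deposited matrices hold raw UMI counts per gene and barcode, which the authors made with Cell Ranger 6.1.2 on mm10; Seurat is also named. Of the 2 libraries, 1 per genotype, all 3565 and 2798 barcodes passing the gene and mitochondrial limits were used; more cells passed these limits than the study analysed. The 12 multiplexing oligonucleotides in the files were left out of gene counts. The labels name both a CD45+ and a live CD11b+ sort. No doublet caller was run; the C1q and Cd8 limits and the alternative without barcodes of over 20 other-cell UMIs take its place in part. UMIs were summed per library and population, scaled to CPM, and compared as log2 ratios with exact conditional 95% intervals; shares have exact Clopper-Pearson intervals. Both cover counting error only. Genes needed 50 UMIs, and a log2 ratio of 1 or more in size (2-fold) counts as past the limit. Named genes were the 6 markers, the 10 highest and 10 lowest between genotypes and the 15 highest and 10 lowest against Foxp3-negative CD4 T cells among those found in at least 20 cells, the 4 most abundant of each of 21 lists, and list members past 2-fold; any other was chosen after its values were seen. The members, the 21 gene lists and the 12 marker lists were chosen with earlier results of these data known. Promoters and positions are from RefSeq (GRCm38.p6). The ratio was tested on simulated data. Alternatives were thinning to 2000 UMIs, Foxp3 of at least 2, C1q at 0, a Cd4 UMI, cycling cells, a mitochondrial limit of 10%, TMM (edgeR 4.0.16, R 4.3.3), other minimums, totals without mitochondrial and ribosomal genes, the mean of CPM per cell, no 5% deepest Tregs, and, chosen after seeing the data, no barcodes with other-cell transcripts. Python 3.11.15, numpy 2.4.6, scipy 1.17.1, pandas 2.3.3 and matplotlib 3.10.9 were used. Some items measured in these cells are not reported here.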

Additional observations from a re-analysis of the deposited data

Results flagged for a closer look

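Il17a, Xcl1 and Gzma differed between the genotypes in opposite directions in Tregs and in Foxp3-negative CD4 T cells. The log2 ratio of Pgdfl/fl LysMCre to Pgdfl/fl was -1.71 in Tregs and 0.55 in Foxp3-negative cells for Il17a, -2.91 and 1.91 for Xcl1, and -3.41 and 2.01 for Gzma. With 1 library per genotype and cell type the difference was not tested. The Foxp3-negative ratios rest on 248 Pgdfl/fl and 112 Pgdfl/fl LysMCre cells. Of these, 9.68% and 22.3% carried more than 20 other-cell UMIs, and the ratios are given with those cells kept. Il17a had 98 UMIs in 22 Pgdfl/fl and 31 UMIs in 11 Pgdfl/fl LysMCre Tregs, and the 5 highest cells held 64.3% and 77.4% of them. Xcl1 was found in 9 and 5 Tregs and Gzma in 5 and 5. Without the barcodes that carry other-cell transcripts, the Treg ratios were -1.45 for Il17a, -2.01 for Xcl1 and -2.12 for Gzma. Thinned to 2000 UMIs they were -0.62, -1.93 and -2.32.

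The multiplexing oligonucleotide of the other library was counted in Tregs of both libraries. It had 35992 UMIs in Pgdfl/fl Tregs (5.01% of the UMIs of both oligonucleotides) and 27202 UMIs in Pgdfl/fl LysMCre Tregs (5.15%), while the 10 oligonucleotides that neither library used had 40 and 17 UMIs in all. The own oligonucleotide was the higher in all 258 and all 238 Tregs. The share of the other one reached at most 30.1% and 20.4%. Its median was 4.36% in the 25 Pgdfl/fl Tregs with more than 20 other-cell UMIs and 5.95% in the rest, and 3.79% and 6.23% in Pgdfl/fl LysMCre.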

How the results depend on the processing

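No paired analysis was possible because each genotype had 1 library, and for the same reason no replicate could be left out. The difference in the Treg share of T cells, 5.55 points, moved to 2.41 with at least 2 Foxp3 UMIs and 1.68 with a Cd4 UMI required, and its direction was the same under all 7 alternatives; without barcodes carrying other-cell transcripts it was 7.17. The count of genes at least 2-fold higher in Pgdfl/fl LysMCre Tregs, 109, was 15 when thinned to 2000 UMIs, 49 with C1q at 0, 51 without the 5% deepest Tregs, 20 without other-cell barcodes, 349 at a minimum of 20 UMIs and 50 at 100. The count of lower genes, 21, was 13 when thinned, 12 without the deepest, 150 and 5 at those minimums, and 35 by the mean of CPM per cell. Higher genes made up 83.8% of those past 2-fold, against 53.6% thinned, 68.1% with C1q at 0, 44.4% without other-cell barcodes, 69.9% at a minimum of 20 UMIs, 90.9% at 100 and 73.1% by the mean per cell. Relative to Foxp3-negative CD4 T cells, the 168 higher genes became 97 when thinned (74 of them shared), and the 62 lower ones 13 when thinned, 35 with C1q at 0 and 39 without other-cell barcodes. Without other-cell barcodes Cd9 (-0.15), Ier3 (-0.57) and Mfge8 (-0.43) changed sign. Thinning took Il17a from -1.71 to -0.62. Thinning tested 2613 and 1877 genes in place of 5091 and 4407; other causes were not tested. Of all other values, 616 for single genes between genotypes and 227 against Foxp3-negative cells kept to within their counting error, and 197 and 52 moved beyond it. The difference between genotypes in the share of Tregs with Il1rl1 or Klrg1 stayed within counting error under its 4 alternatives, while the Pgdfl/fl share itself went from 73.3% to 60.3% when thinned. Depth limits single low genes such as Pgd in Tregs.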

Other observations

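Penk and Pcsk1 were among the named genes, and no list of neuropeptide genes was counted. Penk had a UMI in 41.5% of Pgdfl/fl and 44.5% of Pgdfl/fl LysMCre Tregs. Its level was 1076 and 916 CPM in Tregs and 673 and 912 CPM in Foxp3-negative CD4 T cells. Pcsk1, whose product cleaves prohormones, was at 192 and 117 CPM, a log2 ratio of -0.72 (interval -1.03 to -0.42), and -0.52 without the barcodes that carry other-cell transcripts. Calca, which encodes calcitonin and its related peptide, was singled out after its values were seen. It was at 237 and 232 CPM in Tregs and 29.5 and 60.5 CPM in Foxp3-negative CD4 T cells, and only 38 and 26 Tregs held it.

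Ighm, the immunoglobulin mu heavy chain gene, was also singled out after its values were seen. It had 596 UMIs in 182 Pgdfl/fl Tregs and 356 UMIs in 136 Pgdfl/fl LysMCre Tregs, with log2 ratios of 1.49 and 1.40 to Foxp3-negative CD4 T cells of the same library. The Pgdfl/fl LysMCre to Pgdfl/fl ratio was -0.80 in Tregs and -0.71 in Foxp3-negative cells. B cells numbered 532 and 40 in the libraries, and their part in these values was not tested.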
